A study of Oryza sativa with 6 samples.

Results

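The miR319 family was followed in small RNA from germinating rice seeds kept at 2 temperatures. Its members were chosen by name alone: every entry of the deposited miRNA table with the stem mir319, which gave 9 of 641 names, 1 of the 113 families in the table. The seeds were Kasalath, an aus-type rice cultivar. The "normal" group was 3 small RNA libraries from seeds at 25 °C, in boxed dishes in the laboratory, and the "hot" group was 3 libraries from seeds at 35 °C in an incubator. All 6 libraries were labelled as germinating seeds, 5 days after germination, with no genotype or agent other than temperature named. The seeds of both groups were kept damp to day 8. Place and temperature went together, so their effects cannot be told apart. Each temperature had 4 dishes of 5 seeds. The sources used here do not say which seeds went into which library, so a p-value measures the spread between libraries, which may be partly technical. The table holds miRNAs only, and neither target transcripts nor tissue markers were measured.

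miR319 is one of the oldest plant miRNAs. It guides cleavage of transcripts of TCP transcription factors of the CINCINNATA class, among them PCF5, PCF6, PCF7 and PCF8 in rice. In Arabidopsis these TCP proteins limit cell division and promote maturation in growing leaves, and one of them, TCP4, activates a gene of miR396, the regulator of growth-regulating factors. The mature miR319 closely resembles miR159 in sequence, although the main targets of miR159 are GAMYB transcripts. In rice, overexpression of miR319 widens the leaf blade and raises tolerance to cold. The functional strand comes from the 3p arm of the hairpin, and the 5p arm gives the passenger side.

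The 9 names carried only 4 distinct count patterns. At 25 °C mir319a had 46, 46 and 60 counts, and at 35 °C it had 26, 50 and 56. The names mir319a-3p.2-3p, mir319c-3p and mir319d-3p had exactly these counts. The name mir319b had exactly 2 times as many in each of the 6 libraries, and its deposited normalised value was also 2 times that of mir319a in 6 of 6 libraries. These 5 names are therefore treated as the same reads. A further name, mir319a-3p, differed from mir319a by a single count, with 61 in normal library 3. The suffix of mir319a-3p.2-3p is used for a further small RNA from the same hairpin, yet its counts could not be told from those of mir319a.

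The other 3p row, mir319b-3p, held most of the family's counts. Its counts were 213, 230 and 292 at 25 °C and 136, 277 and 293 at 35 °C. The 5p names mir319b-5p and mir319d-5p were identical to each other, with 2, 0 and 1 counts against 1, 3 and 2. In raw counts hot library 1 was the lowest for each 3p row, and the groups overlapped for all 9 names. No row of another family was identical to, or proportional to, a row of miR319, so no miR159 row repeats one of these rows. The mature forms of the members were not compared by sequence here.

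The scale of these libraries matters for every value that follows. Counts over distinct patterns of the whole table were 44.0% to 59.6% of the deposited library total in the normal libraries and 86.8% to 123% in the hot libraries. The file headers do not say what that total is. The miR156 family alone was 32.2% to 43.2% of it in the normal and 60.4% to 91.6% in the hot libraries. The depth of the libraries was between 157488 and 275549 by that total, and between 136294 and 377473 by the sum of all entered counts. Counting error alone therefore gives a standard deviation of 0.20 to 0.31 on the log2 scale for the ratio of mir319b-3p to mir319a in 1 library, if the rows hold separate reads.

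Relative to the other miRNAs, the 3p rows of miR319 were lower at 35 °C. With TMM scaling, which sets the bulk of the names equal between libraries, mir319b-3p had 1487, 1605 and 1255 CPM (counts scaled to a library of 1000000) at 25 °C. At 35 °C it had 863, 885 and 796 CPM. All hot libraries were below all normal libraries. These values are relative to the other miRNAs and do not by themselves show a loss of miR319. In whole seeds, fewer cells that hold miR319, less miR319 per cell and more of the other miRNAs cannot be told apart. The means were 1449 ± 178 CPM and 848 ± 46.2 CPM (SD, n = 3 each). The fitted log2 fold change was -0.77, with an SE of 0.14 and an adjusted p = 0.0107 over all 253 names in the quasi-likelihood test of edgeR.

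The smaller rows gave a like size of difference. The name mir319a had 321, 321 and 258 CPM at 25 °C and 165.1, 159.7 and 152 CPM at 35 °C. Again the groups did not overlap. Its log2 fold change was -0.91 (SE 0.23, adjusted p = 0.0334), and the identical rows mir319a-3p.2-3p, mir319c-3p and mir319d-3p had the same value. The doubled row mir319b had -0.91 as well, with a smaller SE of 0.18 (adjusted p = 0.015), although it holds no other reads than mir319a. The name mir319a-3p had -0.92 (SE 0.23).

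In all, 7 of the 9 names passed the filter on low counts, all of them 3p names or names without an arm, and 7 of 7 were called lower. The 2 untested names were those of the 5p arm. Of all 253 names tested, 15.8% were called lower, and 28.5% had hot libraries all below the normal libraries. The 7 calls are not 7 measurements, since 6 of them rest on the reads of mir319a. With 1 row per distinct pattern, the 3 tested miR319 patterns were called lower, against 16.3% of all patterns, and mir319b-3p had -0.64 there (adjusted p = 0.00961). Of these patterns, mir319a and mir319a-3p differ by a single count, so the 3 calls are not 3 measurements. These calls rested on single libraries: none of the 3 patterns was called without normal library 1 (lowest adjusted p = 0.0932, mir319b-3p at -0.36), normal library 2 (0.222), hot library 2 (0.0813) or hot library 3 (0.0910). At an unadjusted p under 0.05 these fits had 2, 1, 3 and 1 of the 3. In the DESeq2 test, without a filter, with a replicate block and without normal library 3, mir319b-3p alone was called. None was called with the library totals or without the miR156 names, where 0 and 3 of the 3 had an unadjusted p under 0.05.

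Relative to the deposited library totals, the same rows were not lower at 35 °C. The deposited normalised values of mir319b-3p, counts scaled to a total of 1000000, were 806, 919 and 1059.7 at 25 °C and 864, 1152 and 1202 at 35 °C. Here the groups overlapped, and 2 of the hot libraries were above all normal libraries. The means were 928 ± 127 and 1072 ± 183 (SD, n = 3 each). For mir319a the values were 174, 184 and 218 against 165.1, 208 and 229.6. In the edgeR fit with these totals, the value of mir319b-3p was 0.21 (SE 0.27, adjusted p = 0.521) and mir319a 0.07 (SE 0.38, adjusted p = 0.873). None of the 7 names was called there, and none had an unadjusted p under 0.05. The DESeq2 test with its own size factors called 7 of 7 lower. So did limma-voom, which used the TMM scaling of the main fit. Of all 253 names, DESeq2 called 104 and limma-voom 62 in either direction. In the edgeR fit with TMM, 120 of the 253 had an unadjusted p under 0.05. With the totals 32.3% of 266 names were called higher and 0.376% lower.

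**Figure D1:**
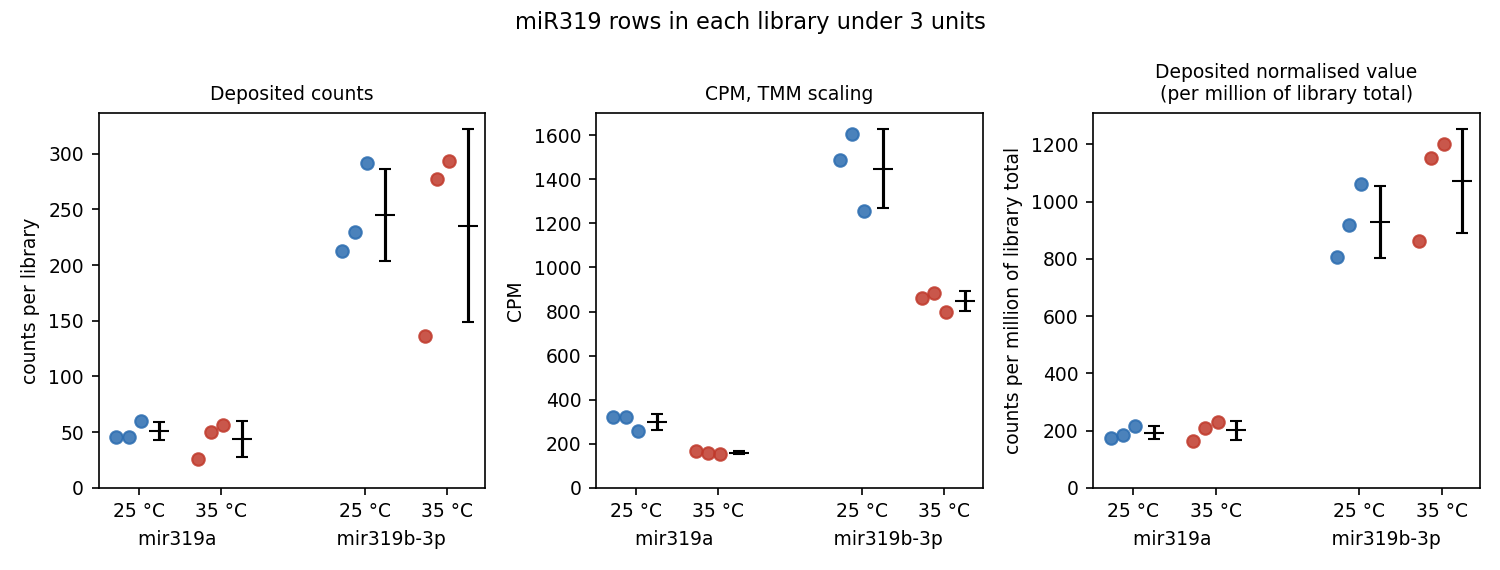
Values of mir319a and mir319b-3p in each library as deposited counts, as CPM after TMM scaling and as the deposited normalised value relative to the library total; blue points are 25 °C libraries, red points 35 °C libraries, and black bars the mean ± SD (n = 3). The hot libraries lie below all normal libraries in CPM (863, 885 and 796 against 1487, 1605 and 1255 for mir319b-3p) and overlap them in the other units.

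These scalings differ mainly by a shift common to all names. The median log2 fold change over all names tested was 0.00588 with TMM and 0.99 with the library totals. Set against that median, mir319b-3p stood at -0.78 in each of these fits, and mir319a at -0.92 and -0.93. Over the fits of names and the main fit of patterns, 16 settings in all, mir319b-3p lay between -0.89 and -0.49 from the median of the same fit, and mir319a between -1.06 and -0.63. Over the 15 settings run with 1 row per distinct pattern, the ranges were -0.59 to -0.41 for mir319b-3p and -0.74 to -0.55 for mir319a. Both rows lay below the middle of the table in each of these settings, while their sign against 0 was positive with the library totals.

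**Figure D2:**
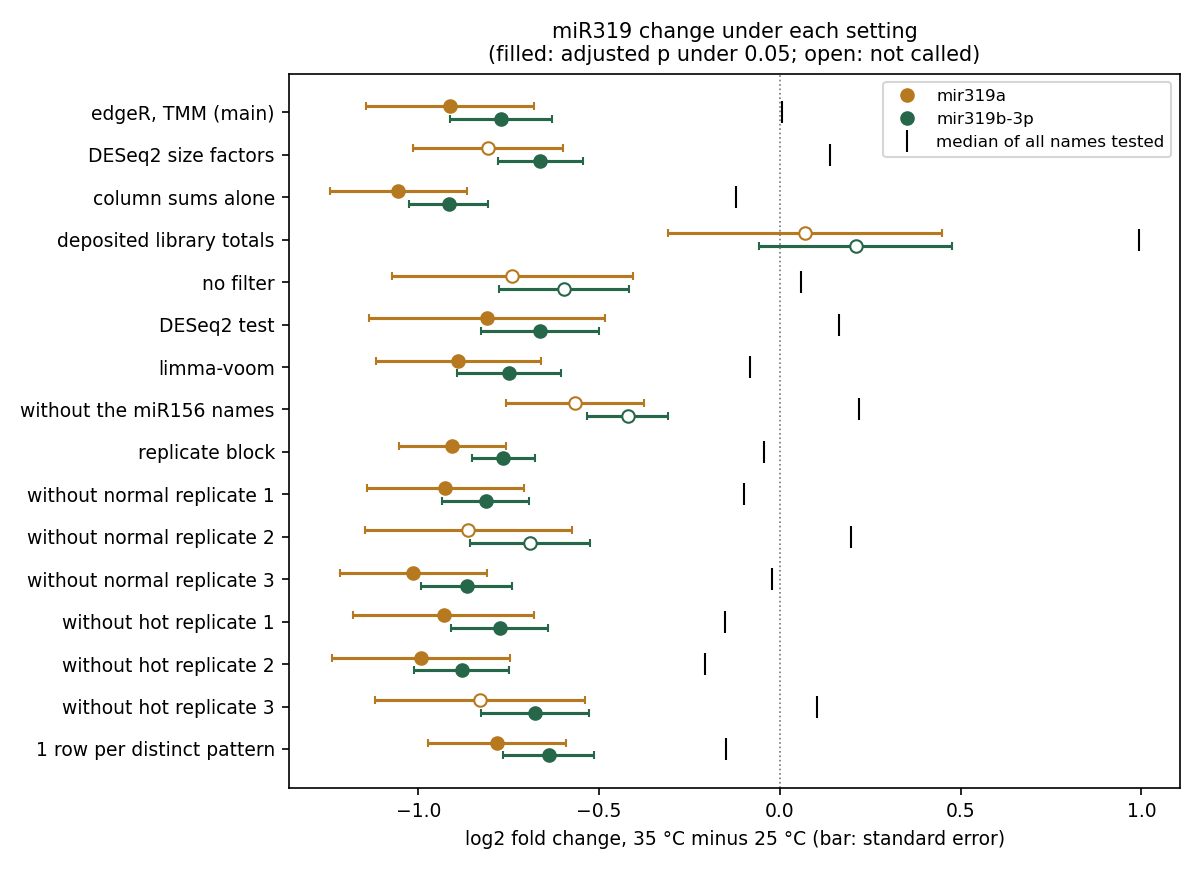
Log2 fold change (35 °C minus 25 °C) of mir319a and mir319b-3p under each of 16 settings, with standard errors; filled points passed adjusted p 0.05, open points did not, and each black tick is the median over all features in that fit. Both rows lie left of the median tick in each setting; with the deposited library totals they are at 0.07 and 0.21 while the median is at 0.99.

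The miR156 names and single libraries decided some of these calls. Without the miR156 names mir319b-3p had -0.42 (adjusted p = 0.0677) and mir319a -0.57 (adjusted p = 0.0987), and edgeR called none of the 7, though 7 had an unadjusted p under 0.05. Among the names left, 4.57% were called lower. Without normal library 2 none of the 7 was called either (0.0579 was the adjusted p of mir319b-3p, and 7 had an unadjusted p under 0.05), and without hot library 3 only mir319b and mir319b-3p were. With DESeq2 size factors also only these 2 names were called, with mir319a just above the threshold, against 6.32% of all names called lower.

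The family was then summed, counting each distinct pattern once. The rows mir319a and mir319a-3p, a single count apart, both entered the sum, so their reads may be counted more than once. The miR319 sum was 307, 322 and 414 counts at 25 °C and 189, 380 and 407 at 35 °C. As a share of all distinct-pattern counts this was 0.257%, 0.292% and 0.252% against 0.138%, 0.144% and 0.135%. Each hot share was below each normal share. In the fit of family sums, with its own TMM scaling, the sum had 2242 ± 124 CPM and 1662 ± 176 CPM (SD, n = 3 each). The fitted difference of -0.43 (SE 0.23, adjusted p = 0.215) did not pass the threshold. Of 31 families tested, 12.9% were called lower and 16.1% higher. The median family was at 0.44 in this fit, so miR319 stood at -0.87 from it. Without a filter it stood at -0.29 from the median of all 113 families. The sum was called lower with the DESeq2 test (-0.61, adjusted p = 0.0214, with 16.1% of families called lower) and with column sums alone (-0.94, adjusted p = 0.0312, with 25.8%), and it was positive with the library totals (0.17, adjusted p = 0.695, with 29.0% of families called higher).

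Ratios within a library do not depend on how libraries are scaled to each other. The ratio of the miR319 sum to the miR396 sum was 0.0377, 0.0477 and 0.0340 at 25 °C and 0.00782, 0.00947 and 0.0110 at 35 °C. This was a difference of -2.08 on the log2 scale, the most negative of the 5 ratios tested. Against miR156, which acts on SPL transcription factors, the ratio was 0.00348, 0.00401 and 0.00348 against 0.00199, 0.00198 and 0.00182, a log2 difference of -0.92. Against miR166, which acts on class III homeodomain-leucine zipper transcripts, the difference was -0.43, and against miR167, which acts on auxin response factors, it was -0.37. In these 4 ratios no hot library overlapped a normal one. Each had p = 0.1 in the exact two-sided permutation test, which is the smallest that 3 against 3 libraries allow, and 0.125 after Benjamini-Hochberg adjustment over 5 ratios, so none could pass 0.05.

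The ratio to miR159, the nearest relative in sequence, did not separate the groups. The miR319 sum was 0.0510, 0.0773 and 0.0580 of the miR159 sum at 25 °C and 0.0694, 0.0877 and 0.0812 at 35 °C. Hot library 1 lay below normal library 2. The mean log2 ratio was -4.03 ± 0.31 and -3.66 ± 0.17 (SD, n = 3 each), a difference of 0.37 with p = 0.2 in the exact two-sided permutation test (adjusted p = 0.2 over the 5 ratios). The direction was positive with each library left out in turn (0.24 to 0.54).

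**Figure D3:**
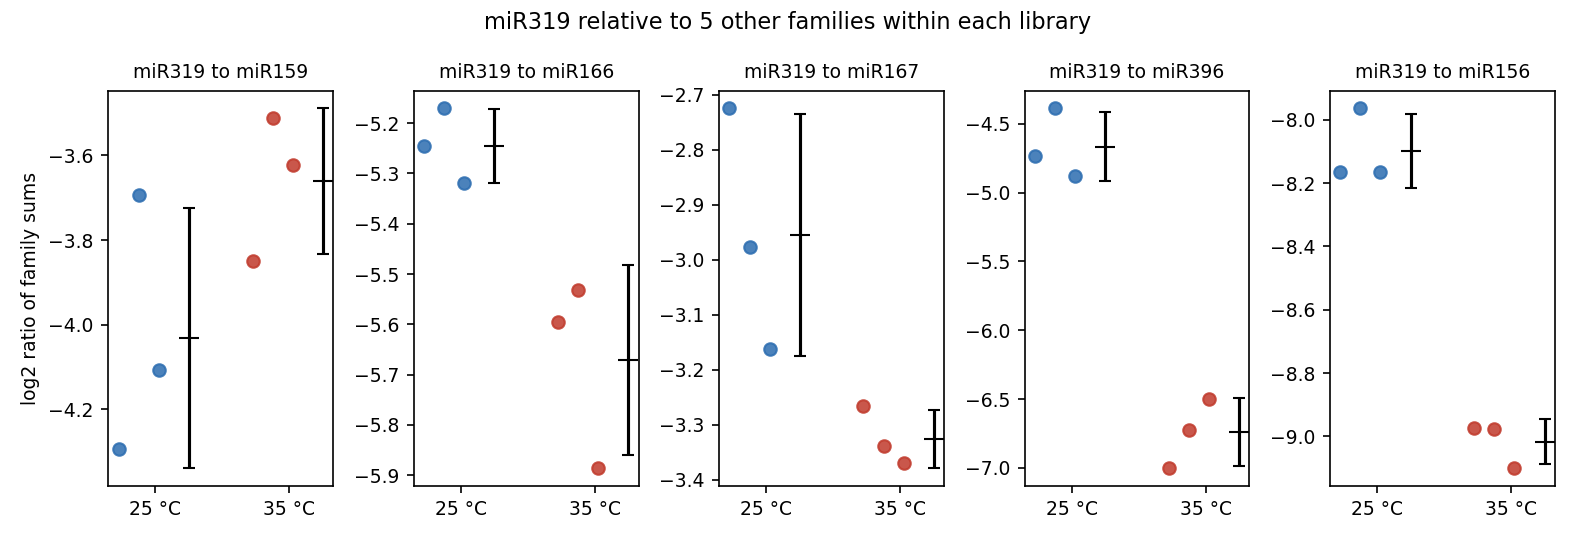
Log2 ratio of the miR319 family sum to the sums of miR159, miR166, miR167, miR396 and miR156 within each library (each panel has its own axis); blue points are 25 °C, red points 35 °C, and black bars the mean ± SD (n = 3). The groups separate for miR166, miR167, miR396 and miR156, with differences of -0.43, -0.37, -2.08 and -0.92, and overlap for miR159.

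The same comparison was made with each of the other 30 families tested. For 14 of them the ratio of miR319 was lower in all hot libraries than in any normal library, among them miR393, miR394, miR396, miR444, miR168 and miR156. For 3 it was higher in all hot libraries: miR5794, miR3630 and miR5504, with log2 differences of 1.29, 1.48 and 1.81. These 3 sums rested on only 134, 145 and 125 counts over all libraries, and those of miR393 and miR394 on 136 and 182. For the other 13 the groups overlapped. The median family was lower in this sense against 3 others and higher against 5, and 5 of the 31 families were lower against more others than miR319 was. The families miR384 and miR394 had equal sums and count here as 2.

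**Figure D4:**
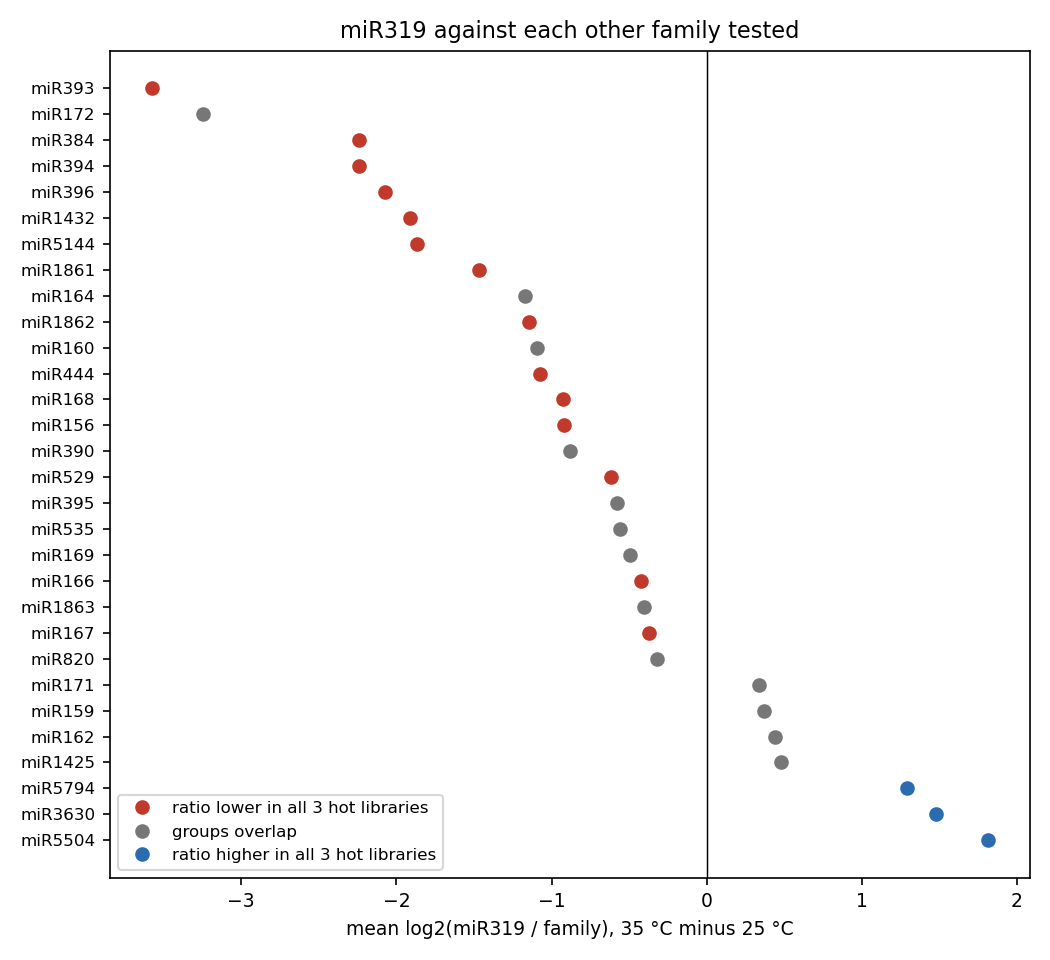
Difference between 35 °C and 25 °C in the mean log2 ratio of miR319 to each of 30 other families; red marks families for which the ratio was lower in all 3 hot libraries, blue those for which it was higher in all 3, grey those whose groups overlap. Red points number 14 and blue points 3.

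Within the family, the ratio of the main 3p rows was compared between temperatures. The count of mir319b-3p was 4.63, 5 and 4.87 times that of mir319a at 25 °C and 5.23, 5.54 and 5.23 times at 35 °C. The groups did not overlap, and the mean log2 ratio was 2.27 ± 0.06 and 2.41 ± 0.05 (SD, n = 3 each). The difference of 0.14 had p = 0.1 in the exact two-sided permutation test, the smallest possible, and p = 0.2 after adjustment over the 2 within-family ratios. This ratio was chosen after its values were seen. The difference is below the counting error of 1 library given above, but that error is not the error of a mean of 3. It also assumes separate reads, and the SDs between libraries, 0.06 and 0.05, were smaller than it. Whether the rows share reads was not tested.

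**Figure D5:**
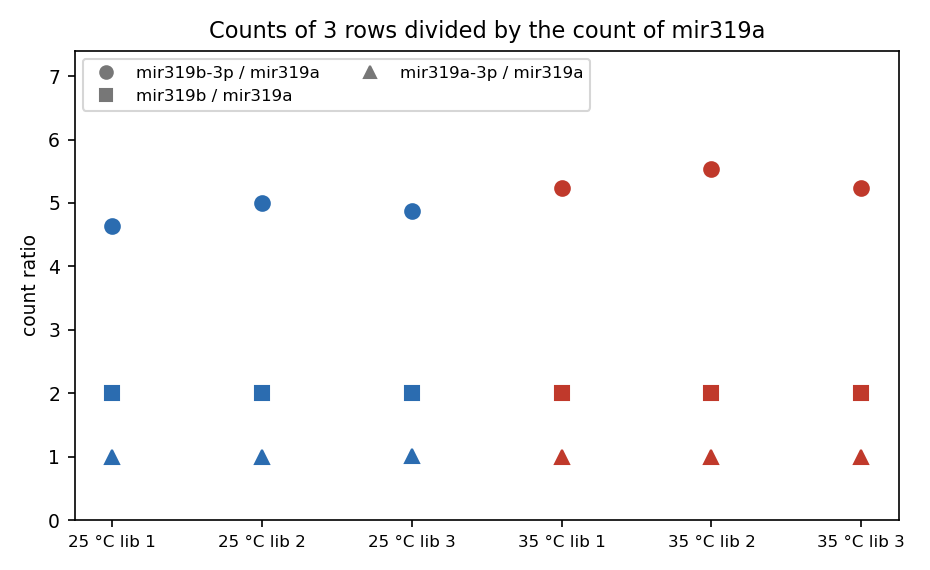
Counts of mir319b-3p, mir319b and mir319a-3p divided by the count of mir319a in each library; blue marks 25 °C and red 35 °C libraries. The ratio of mir319b-3p runs from 4.63 to 5 at 25 °C and from 5.23 to 5.54 at 35 °C, while mir319b is at 2 throughout.

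The 5p arm was close to the limit of detection. Of the counts entered for mir319b-5p and mir319b-3p together, the 5p arm made up 0.93% in normal library 1 (2 of 215, Wilson 95% interval 0.255% to 3.33%). It had 0 of 230 in normal library 2, which by the limit of 3 counts allows a share of up to 1.30% (the Wilson upper bound is 1.64%), and 0.341% in normal library 3 (0.0603% to 1.91%). In the hot libraries the shares were 0.73% (0.129% to 4.02%), 1.07% (0.365% to 3.102%) and 0.678% (0.186% to 2.44%). All these intervals overlap, and they cover counting error only. Pooled over libraries, 3 counts at 25 °C stood against 6 at 35 °C, which after TMM scaling is 1.24 times as many, with a 95% interval from the exact binomial of 0.264 to 7.65. Scaled by the library totals it is 2.46 times as many (0.526 to 15.2). The log2 ratio of the arms differed by 1.06 (p = 0.3, exact two-sided permutation test). A difference between the temperatures in the 5p arm was not detectable at this depth.

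The families set beside miR319 in organ growth did not move as one. The list held miR319, miR396, miR164, which acts on NAC boundary genes, and miR390, which triggers the small RNAs that act on auxin response factors. Of its 44 tested names 14 were called higher, all of miR396, and 7 lower, all of miR319, with a median log2 fold change of 0.19 against 0.00588 over all names. Of all names 7.11% were called higher and 15.8% lower. Names of a family can repeat the same reads, as 304 of the 641 names did, so these name counts need not be separate measurements. With the library totals 16 names of the list were called higher, 15 of them of miR396 and 1 of miR390, and 0 lower. The most abundant miR396 names, mir396d and mir396c, had 0.94 (SE 0.12) and 1.51 (SE 0.22). With TMM, none of the 8 tested miR164 names was called by edgeR or limma-voom, or had an unadjusted p under 0.05, nor did the DESeq2 test call any, and they lay between 0.16 and 0.22. The same held for the 8 tested miR390 names, which lay between -0.28 and 0.38, apart from the 1 called with the library totals. As family sums miR164 had 0.58 (SE 0.57, adjusted p = 0.466) and miR390 0.45 (SE 0.44, adjusted p = 0.466).

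The miR159 list, the relative that acts on GAMYB, had 11 of 16 tested names called lower, against 15.8% of all names, with a median of -1.27. Here too names can repeat the same reads, so the 11 need not be 11 measurements. With the library totals none of the 16 was called, while DESeq2 with its own size factors and limma-voom with TMM called 11 each. Its most abundant names, mir159a and mir159b, had -1.22 (SE 0.17) and -1.32 (SE 0.17). As a family sum miR159 had -0.81 (SE 0.20, adjusted p = 0.0376), against -0.43 (SE 0.23) for miR319. The difference between these sums is the ratio tested above. Among the other conserved regulators of transcription factors, 17 of 137 tested names were called lower and none higher by edgeR with TMM. Of all names, 15.8% were called lower and 7.11% higher. With the library totals 0 were called lower and 42 higher, where 32.3% of all names were called higher. The median under TMM was -0.02, 54 had an unadjusted p under 0.05, and 49 were called by DESeq2 and 17 by limma-voom. Over all 253 names these 3 counts were 120, 104 and 62. Each count made up a smaller share of the list than of all names, most so for limma-voom. Of the 14 names of miR162 and miR168, which act on Dicer-like and Argonaute transcripts, edgeR called none with TMM and 1 higher with the library totals. In the edgeR fit with TMM 5 had an unadjusted p under 0.05, while DESeq2 called 3 and limma-voom, also with TMM, called 5.

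The rows most like mir319b-3p across the 6 libraries were those of its own family, mir319a and mir319a-3p (r = 0.99 each), and the next came from several other families. Likeness was Pearson's r of log2 CPM over all other patterns tested, given as a description of 6 libraries that share their depth and scaling. Outside miR319 the first was mir166m (r = 0.979). Next came mir156 (0.964), mir167c-5p (0.941), mir3630-3p (0.928) and mir5504 (0.920). A high r did not mean a like size of difference: mir5504 had 34, 36 and 29 counts at 25 °C and 6, 6 and 14 at 35 °C, a steeper drop in counts than that of any miR319 row.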

How the data were processed

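Small RNA libraries were made from Kasalath seeds with a mirVana kit and the NEBNext small RNA set, per the labels' protocols. The series' design text names a MiSeq as the sequencer. The deposited table gives a raw count and a normalised score for each of 641 names and 6 libraries, per the file headers. The sources used here name no matching tool, miRNA database or genome build. A deposited score equals the count over 1 total per library, times 1000000, and that total was recovered from rows above 20 counts. No miRNA sequences were used here.

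Rows of a family that were identical or exact whole multiples in all 6 libraries were treated as the same reads (414 distinct patterns), and a family sum adds the smallest row of each set. Names, patterns and family sums were each tested over the whole table with edgeR 4.0.16 (filterByExpr, TMM, group alone in the model, quasi-likelihood F test) in R 4.3.3, with Benjamini-Hochberg adjustment and a threshold of 0.05. The SE is the log2 fold change over the square root of F. CPM is relative to the TMM-scaled column sum. Ratios used a pseudocount of 0.5, except that of mir319b-3p to mir319a, which used none. Alternatives were other scalings, no filter, DESeq2 1.42.0, limma-voom (limma 3.58.1), leaving out miR156 or single libraries, and other sums; running each of these with 1 row per distinct pattern was added after seeing the data. Only the edgeR fit of names with TMM was run on simulated counts. The simulated rows were independent, unlike names that share reads. Replicate libraries differed by more than counting error (chi-square per degree of freedom 5.13 to 23.2). All members are named. Likeness names the 5 patterns outside miR319 with the highest r, and each list its 2 most abundant names. Families in the ratio comparisons that fall outside these rules were named after their values were seen. Members, lists and tests were chosen with earlier results of these data known.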

Additional observations from a re-analysis of the deposited data

How the results depend on the processing

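The number of miR319 names called, 7 of 7 with TMM, was 2 with DESeq2 size factors, 0 with the deposited library totals, 0 without a filter (edgeR, 7 with an unadjusted p under 0.05), 0 without the miR156 names and 3 of 3 with 1 row per distinct pattern. Of the 3 patterns, mir319a and mir319a-3p differ by a single count. The number of names called ran from 0 (without normal library 2) to 7 when single libraries were left out. With the library totals the log2 fold changes turned to 0.0689 (mir319a), 0.0598 (mir319a-3p), 0.0680 (mir319b), 0.21 (mir319b-3p) and 0.17 (family sum). The cause was not tested. Over all alternatives the adjusted p ran from 0.000504 to 0.521 for mir319b-3p, from 0.00881 to 0.873 for mir319a and from 0.0214 to 0.695 for the family sum. The family sum was called with column sums alone (-0.94) and with the DESeq2 test (-0.61). It ran from -0.49 to -0.35 when single libraries were left out, and using only the most abundant row of each family, added after seeing the data, gave -0.70. The ratio to miR159 kept its direction in 11 of 11 alternatives (0.24 to 0.54). Of these, a replicate block cannot change it, and a pseudocount of 1 could hardly do so at these counts. The ratio of mir319b-3p to mir319a, an added result, ran from 0.11 to 0.17 over 7 alternatives. Its groups do not overlap, so leaving out a library could not turn its direction. The remaining alternative used mir319a-3p, which is a single count from mir319a. These 7 are therefore no test of its direction.

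Same-numbered libraries of both temperatures had correlations of 0.42, -0.15 and 0.01 in their deviations from the group means. Normal library 3 and hot library 2 had 0.48. These values show no clear pairing by number, but with 3 libraries per group they cannot exclude it. With a replicate block 7 names were called (1 of 3 with 1 row per distinct pattern, mir319a at an adjusted p of 0.0549), the family sum had -0.44 and the ratio to miR159 0.37. The share of all names or patterns called was not computed for the block, for the fit without a filter or for fits without single libraries. Whether the miR319 calls there exceed that share is therefore not known. Low counts limit the family: mir319a had at most 60 counts in a library and the 5p rows at most 3.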

Other observations

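By summed distinct patterns, miR319 ranked from 7th to 9th of 113 families in the normal libraries and from 9th to 11th in the hot libraries. Among the 13 families whose ratio to miR319 overlapped between temperatures, the mean difference was positive for miR171 (0.34), miR159 (0.37), miR162 (0.44) and miR1425 (0.48) on the log2 scale, and negative for the others, down to miR172 (-3.25). The miR172 sum rested on 373 counts over all libraries, and that of miR1425 on 233. Set against the deposited library total, miR319 was 0.132% ± 0.0172 at 25 °C and 0.148% ± 0.0249 at 35 °C (SD, n = 3 each), with overlapping groups. This is no true share, since the counts of the table exceeded that total in hot libraries 2 and 3.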
